A study of Mus musculus with 6 samples.

Results

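Srsf1, Srsf2, Srsf3, Srsf4, Srsf5, Srsf6, Srsf7, Srsf10, Srsf11 and Tra2b encode serine/arginine-rich (SR) splicing factors, and they are described here by RNA level and by isoform class in the operated sciatic nerve of mice. The 10 genes were taken by symbol out of 54309 genes in the deposited tables, and for each gene and library the share of its RNA was computed over transcripts annotated as protein coding, nonsense-mediated decay, retained intron or other. They carry 89 annotated transcripts, of which 29 are protein coding, 17 nonsense-mediated decay, 29 retained intron and 14 other. Of these, 8 transcripts were at 0 in every library. On GRCm38, Srsf1 and Srsf2 lie on chromosome 11, Srsf3 and Srsf7 on chromosome 17, Srsf4 and Srsf10 on chromosome 4, Srsf5 on chromosome 12, Srsf6 on chromosome 2, Srsf11 on chromosome 3 and Tra2b on chromosome 16.

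The nerves came from female and male C57BL/6 mice, with 3 libraries of each sex made from the distal stretch of the left sciatic nerve 24 h after surgery. The mice were 6 to 8 weeks old, no allele or agent is labelled for either sex, and each library pooled the tissue of 2 animals. The labels name axotomy, the cutting of the nerve, as the treatment of both sexes, whereas the written procedure describes a nerve that was exposed and left uncut, so whether these nerves were cut is not settled by the labels. The study set out to compare the sexes after axotomy, and no unoperated nerve was analysed here.

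SR proteins bind short enhancer sequences in exons and recruit the spliceosome to nearby splice sites, so their amounts shape which exons a cell keeps. Many of their own genes carry a poison exon, an alternative exon with an early stop codon, or keep an intron, and SR proteins often promote the non-productive form of their own RNA. A stop codon that lies well upstream of the last exon junction leaves exon junction complexes on the RNA after translation, which triggers nonsense-mediated decay (NMD). Retained-intron RNAs are commonly held in the nucleus. An NMD transcript is degraded in the cytoplasm, so its steady level can be far below the rate at which it is made.

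The early stop codons of 6 of the 10 genes lay in exons that shared no base with any coding transcript of the same gene at a mean of 1 TPM or more, where TPM is abundance per length scaled to the same total in every library. These exons are shown because the decay form carries them and those coding transcripts do not. They are not the only difference in Srsf4-204, Srsf7-203 and Srsf11-206, where 546, 462 and 226 bases lie in no coding exon, more than the exon holds. Sequences are from the GENCODE M21 annotation on GRCm38, read 5′ to 3′ on the gene's strand from the first base of the exon to the early stop codon, which is in capitals.
Srsf3-201, exon 4 of 7, chr17:29039454-29039487, plus strand: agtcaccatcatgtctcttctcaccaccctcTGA
Srsf4-204, the first exon of its model, chr4:131884295-131884390, plus strand: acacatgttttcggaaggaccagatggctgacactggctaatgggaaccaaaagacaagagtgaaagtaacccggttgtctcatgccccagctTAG
Srsf6-201, exon 3 of 7, chr2:162932815-162932966, plus strand: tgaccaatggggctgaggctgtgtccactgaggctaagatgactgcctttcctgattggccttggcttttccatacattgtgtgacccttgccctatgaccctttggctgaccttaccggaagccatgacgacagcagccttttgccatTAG
Srsf7-203, exon 4 of 9, chr17:80205054-80205081, minus strand: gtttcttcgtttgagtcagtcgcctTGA
Srsf11-206, exon 4 of 9, chr3:158024209-158024231, minus strand: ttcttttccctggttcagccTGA
Tra2b-206, exon 2 of 10, chr16:22259181-22259261, minus strand: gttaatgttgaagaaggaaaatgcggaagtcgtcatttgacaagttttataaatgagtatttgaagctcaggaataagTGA

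The whole exons were 456 nt long in Srsf3, 188 nt in Srsf4, 268 nt in Srsf6, 460 nt in Srsf7, 109 nt in Srsf11 and 276 nt in Tra2b. Read in the annotated frame, none of the 6 held a stop codon before the one in capitals. The stop codon ended 28 nt into the exon in Srsf7 and 23 nt in Srsf11, but 152 nt in Srsf6. The model of Srsf4-204 begins inside the gene, so what precedes its exon is not annotated. In the other 3 genes with NMD transcripts the stop codon was reached in another way. Srsf5-208 stops in an extension of a coding exon, Srsf1-204 removes an intron that carries the normal stop codon, and Srsf2-204 keeps the normal stop codon but splices beyond it. Over the 9 genes the stop codon of the most abundant NMD transcript lay 80 to 1015 nt before the last exon junction. Srsf10 has no transcript annotated as NMD or retained intron.

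The gene levels spanned more than an order of magnitude, and on the TPM scale, which sums a gene's transcripts per length, the sexes failed to overlap in 1 of the 10 genes, against 19.5% of all genes tested. Fewer cells of a type and less RNA per cell cannot be told apart in these pooled nerves. Srsf5, whose protein is also called SRp40, was the most abundant, at 496, 492 and 544 TPM in the female libraries and 447, 498 and 559.5 TPM in the male libraries. Srsf2, which encodes the nuclear speckle protein SC35, had 356, 299 and 312 TPM in females and 302, 312 and 336 TPM in males. Srsf3, the smallest SR protein and an adaptor for mRNA export, had 249.6, 245 and 266 TPM in females and 238, 234 and 246 TPM in males. In all 3 genes the lowest female library lay below the highest male one.

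Srsf1, the founding member of the family, had 218, 200.02 and 221 TPM in females and 182, 203 and 212 TPM in males. Srsf7, an SR protein with a zinc knuckle that also binds export factors, had 166, 165 and 174 TPM in females against 160.5, 155 and 163 TPM in males. Srsf7 was the gene whose sexes did not overlap on this scale, with every female library above every male one, whereas its CPM, the gene count scaled to library size, overlapped between the sexes. Tra2b, the mouse relative of the fly sex-determination factor Transformer 2, had 141, 131 and 148 TPM in females and 138, 140.2 and 135 TPM in males. Srsf6, or SRp55, had 147, 133 and 139.6 TPM in females and 127, 130.4 and 146 TPM in males. Both genes overlapped between the sexes.

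Srsf11, which encodes the SR-related protein p54, had 145, 138 and 139 TPM in females and 106, 129 and 148 TPM in males, with male library 1 the lowest of the 6. Srsf10, a splicing repressor when it is dephosphorylated, had 95.4, 91.5 and 107 TPM in females and 90.0, 97.6 and 104 TPM in males. Srsf4, or SRp75, was the least abundant and the most even, at 35.2, 34.9 and 35.6 TPM in females and 35.2, 35.4 and 34.4 TPM in males. Ranked over all 6 libraries, the means were 506 TPM for Srsf5, 319 for Srsf2, 246 for Srsf3, 206 for Srsf1, 164 for Srsf7, 139 for Tra2b, 137 for Srsf6, 134 for Srsf11, 97.6 for Srsf10 and 35.1 for Srsf4. The ranges of Tra2b, Srsf6 and Srsf11 overlapped, and so did those of Srsf11 and Srsf10, so the order within these is not separated from the spread between libraries. All other neighbours in the order had ranges that did not overlap.

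**Figure D1:**
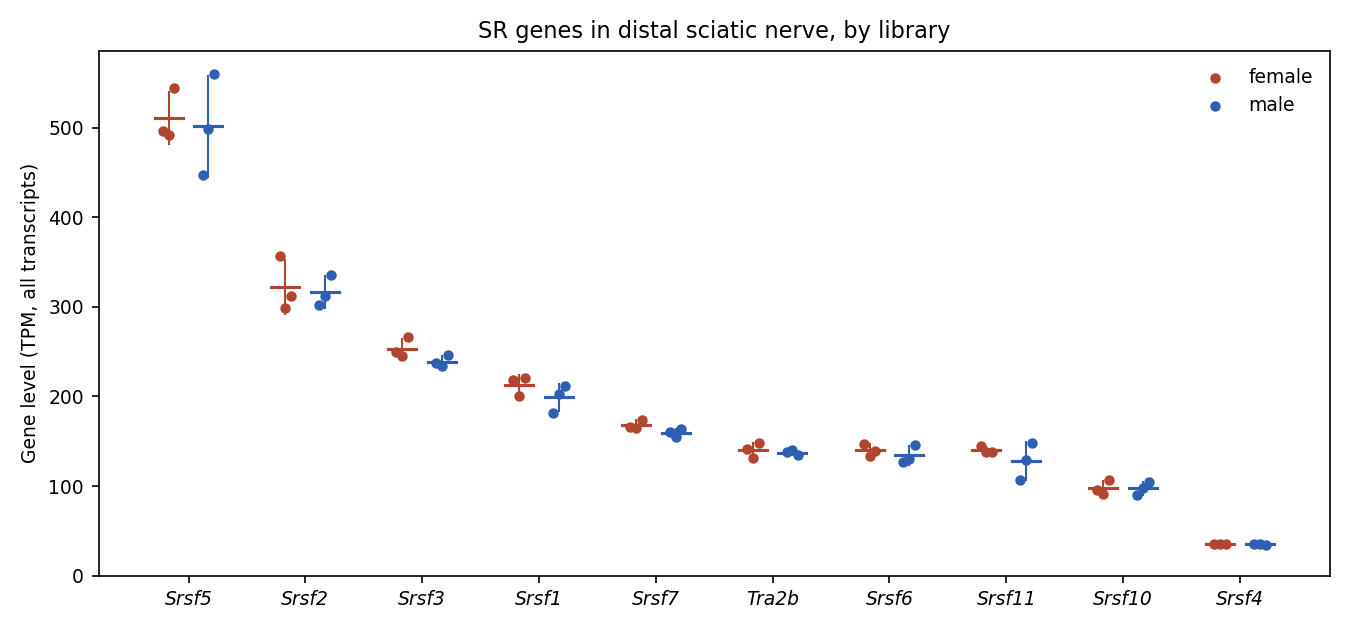
Level of each SR gene in TPM, summed over all its transcripts, with 1 point per library, the 3 female libraries left of the 3 male libraries; horizontal bars are means and vertical bars SDs. Srsf5 averaged 506 TPM and Srsf4 35.1 TPM, and in every gene except Srsf7 the points of the sexes overlap.

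The order changed when only protein coding transcripts were counted. Srsf2 then led with a mean of 233 TPM over the 6 libraries, followed by Srsf3 with 199.7 TPM and Srsf5 with 178 TPM. Srsf11 had 25.7 TPM in coding transcripts, close to the 24.3 TPM of Srsf4. The coding level of Srsf5 was 180.4 ± 8.46 TPM in females and 175 ± 19.4 TPM in males (SD, n = 3 each), and that of Srsf11 was 26.6 ± 4.23 TPM in females and 24.7 ± 1.36 TPM in males (SD, n = 3 each).

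Srsf11 had the largest share of its RNA in NMD and retained-intron transcripts. Together they made up 78.3%, 81.9% and 83.0% of its TPM in the female libraries and 76.1%, 82.0% and 82.8% in the male libraries. Nearly all of this was annotated as retained intron, with a mean of 77.9% over the 6 libraries, spread over 11 annotated retained-intron transcripts. By estimated reads the 2 classes together made up 67.4% of the gene and coding transcripts 32.6%. None of the retained-intron transcripts at a mean of 1 TPM or more keeps a whole intron of the main coding transcript, so the class rests on the annotation. The most abundant was Srsf11-208, with 33.8, 37.9 and 39.2 TPM in females and 19.9, 29.6 and 36.2 TPM in males. It is 2415 nt long, and 1988 of these bases lie in no coding exon. The main coding transcript, Srsf11-202, had 19.6 ± 6.14 TPM in females and 18.2 ± 1.72 TPM in males (SD, n = 3 each), less than its retained-intron transcripts combined.

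Srsf5 kept 44.5%, 45.3% and 42.6% of its TPM in these 2 classes in females and 45.4%, 42.1% and 42.6% in males. A single transcript, Srsf5-212, carried most of it, at a mean of 209 TPM or 41.4% of the gene. It keeps intron 5 of the main coding transcript, which is 1229 nt long, and all its exon junctions also occur in coding transcripts. Another 21.1% of Srsf5 TPM was in processed transcripts, which are annotated as neither coding nor decay forms. By estimated reads, processed transcripts held 7.19% of Srsf5, and NMD and retained-intron transcripts 58.7%. Its NMD transcript, Srsf5-208, had between 0 and 0.829 TPM, on 0 to 15 estimated reads a library.

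In Srsf6 the share was 38.6%, 37.5% and 39.3% in females and 38.7%, 37.3% and 41.9% in males. Srsf6-204, which keeps intron 2 of 1283 nt, averaged 44.7 TPM, and the poison exon transcript Srsf6-201 averaged 8.66 TPM. The kept intron contains the poison exon, so that the early stop codon shown above is present in both transcripts.

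The share in Srsf1 was 32.6%, 34.5% and 35.0% in females and 30.0%, 35.2% and 36.9% in males. Most of it was Srsf1-203, a transcript of 759 nt annotated as retained intron, at a mean of 59.1 TPM or 28.6% of the gene. This model has no base outside the exons of coding transcripts and differs from them by 1 exon junction. Counted by estimated reads instead of TPM, the NMD and retained-intron share of Srsf1 was 7.07%, since TPM gives short transcripts more weight. By TPM the NMD share of Srsf1 alone was 3.05%, 2.87% and 3.50% in females, below the 4.11%, 4.16% and 4.79% in males. By estimated reads that share was 0.973%, 1.03% and 1.24% in females and 1.40%, 1.49% and 1.79% in males. How many of all genes fail to overlap between the sexes was not counted for NMD alone. For the ratio of NMD plus retained-intron TPM to coding TPM it was 11.8% of 6303 genes.

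By TPM, Srsf4 had a larger mean share in NMD than in retained-intron transcripts, at 20.8% and 10.04% over the 6 libraries. By estimated reads the order was the opposite, with 8.22% in NMD and 15.1% in retained-intron transcripts. NMD transcripts made up 22.5%, 22.0% and 23.3% of its TPM in females and 17.96%, 21.8% and 17.2% in males, but 9.16%, 8.40% and 9.16% of its reads in females and 7.26%, 8.68% and 6.68% in males. The sexes thus did not overlap by TPM, with the nearest libraries at 22.0% and 21.8%, and overlapped by reads. As for Srsf1, no count over all genes was made for the NMD share alone. The most abundant, Srsf4-204, had 5.66, 5.49 and 5.85 TPM in females and 4.59, 4.89 and 4.43 TPM in males. With retained-intron RNA included, the share was 32.1%, 34.0% and 34.2% in females and 24.9%, 29.1% and 30.7% in males. These values rest on 144 to 266 estimated reads a library for Srsf4-204.

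Srsf7 had 28.4%, 30.0% and 29.6% in these classes in females and 25.9%, 25.2% and 31.4% in males. Srsf7-206 and another retained-intron transcript each keep intron 3 of 874 nt, which contains the poison exon, and averaged 17.9 and 16.9 TPM, while the spliced poison exon form Srsf7-203 averaged 3.78 TPM. Srsf2 had 26.6%, 27.4% and 26.4% in females and 26.7%, 27.1% and 28.7% in males, mostly as Srsf2-203, which keeps intron 2 of 1059 nt and averaged 74.2 TPM. Srsf2-204, its leading NMD form by mean TPM, ranged from 3.00 to 10.6 TPM over the libraries, a wide spread on 36 to 130 estimated reads. The other NMD form, Srsf2-202, is longer, at 1336 nt against 620 nt. It had more reads, 195 to 287 a library, and 4.44 to 6.26 TPM.

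By TPM, Srsf3 and Tra2b had the smallest shares of the 9 genes with such transcripts, whereas by estimated reads Srsf1 had the smallest. In Srsf3 the share was 20.4%, 18.5% and 18.1% in females and 16.7%, 17.3% and 19.0% in males. Its poison exon form Srsf3-201 averaged 12.999 TPM, and Srsf3-204, which keeps introns 3 and 4 of 2150 and 393 nt, averaged 16.3 TPM. In Tra2b the share was 13.7%, 15.97% and 16.5% in females and 12.1%, 17.2% and 17.5% in males, led by the poison exon form Tra2b-206 at a mean of 9.55 TPM. Srsf10 had 0% by annotation, and its processed transcripts held 12.9% to 26.1% of its TPM, but 3.90% to 7.84% of its reads.

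**Figure D2:**
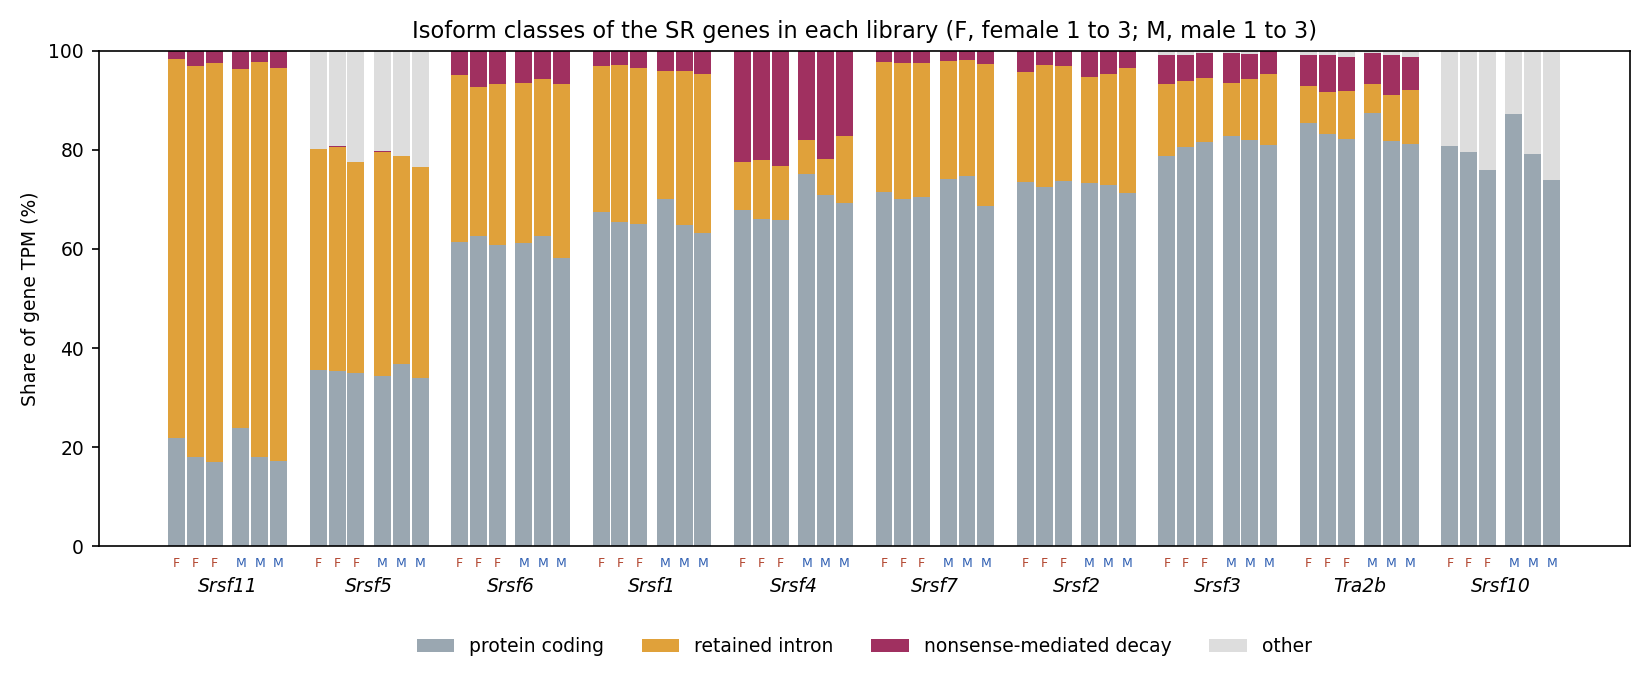
Share of each gene's TPM in protein coding, retained-intron, NMD and other transcripts, with 1 bar per library, female libraries 1 to 3 left of male libraries 1 to 3, and genes ordered by mean NMD plus retained-intron share. Srsf11 is mostly retained intron with a mean of 77.9%, Srsf4 has the widest NMD band with a mean of 20.8%, and Srsf10 has neither class annotated.

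Over all libraries, transcripts of any class that contain the early stop codon held 38.9% of the TPM of Srsf6, 25.8% of Srsf11, 23.5% of Srsf7, 20.8% of Srsf4, 13.6% of Tra2b and 11.9% of Srsf3. The NMD class alone held 6.33% of Srsf6, 2.76% of Srsf11, 2.30% of Srsf7, 6.91% of Tra2b and 5.28% of Srsf3, so in Srsf3, Srsf6, Srsf7 and Srsf11 most RNA with the poison exon carried it within a retained-intron model. In Srsf4 the measure equals the NMD share given above.

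The SR genes had more NMD and retained-intron RNA than the median gene. In 6303 genes with both coding and NMD or retained-intron transcripts at a mean of at least 0.5 TPM, the median share was 14.4% and the upper quartile 29.6%. Srsf10 is not among them, and the other 9 had a median of 30.8%. All 9 lay above the median of the 6303 genes, and Srsf11, Srsf5, Srsf6, Srsf1 and Srsf4 lay above the upper quartile. Srsf11 was above 99.1% of these genes and Tra2b above 52.2%. Among the 2030 genes at 50 TPM or more the median was 7.30%. For NMD alone Srsf4 was above 92.5% of the 6303 genes, whose median NMD share was 0% and upper quartile 4.19%. By estimated reads the median over the 6303 genes was 6.63% and that of the 9 genes 25.9%, and all 9 again lay above the median, Srsf1 by the least at 7.07%. On that scale Srsf1 and Srsf4 stood above 51.6% and 80.8% of the genes, and for NMD alone Srsf4 was above 85.8%. These positions are a description, since they depend on the unit and on how many such transcripts the annotation lists for each gene.

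**Figure D3:**
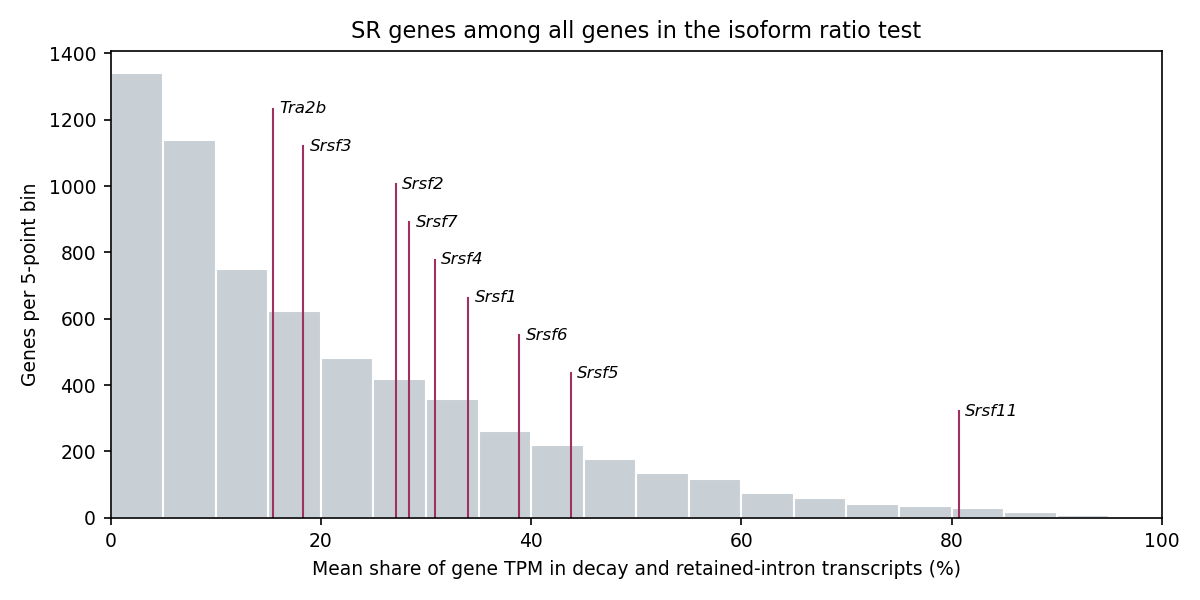
Histogram of the mean share of gene TPM in NMD and retained-intron transcripts over 6303 genes, in bins of 5 percentage points, with the 9 SR genes in this set marked by lines. The median gene had 14.4%, and the marked genes run from 15.5% in Tra2b to 80.7% in Srsf11.

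No SR gene passed the test for a difference in level between the sexes. Gene levels were compared by edgeR's quasi-likelihood test on estimated counts, with p-values adjusted over all 19129 genes tested by the Benjamini-Hochberg method and called under 0.05. All 10 genes passed the filter on low counts, and 0 were called, against 0.11% of all genes tested, which is 21 genes. No SR gene had an unadjusted p under 0.05 either, while 14.6% of all genes did, and DESeq2 also called 0 of the 10. The log2 fold changes, female minus male, ran from -0.014 in Srsf4 to 0.14 in Srsf11, with a median of 0.055 against 0.016 over all genes. The sign was positive in 9 of the 10, against 53.6% of all genes. Without female library 1 it was positive in 6 of the 10 and the median was 0.0051, and without male library 3 it was also positive in 6.

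With all 6 libraries Srsf11 had the largest difference, with 129.6 ± 14.5 CPM in female nerves and 118 ± 4.15 CPM in male nerves (SD, n = 3 each). Its log2 fold change was 0.14, with a standard error (SE) of 0.091 and an edgeR adjusted p of 0.536. Without female library 1 it was 0.043, below the 0.067 of Srsf3. Srsf1 followed with 260.4 ± 27.5 CPM in female nerves, against 239 ± 11.8 CPM in male nerves, and a log2 fold change of 0.12 (SE 0.095, edgeR adjusted p = 0.611). Srsf4 had 50.7 ± 0.962 CPM in female nerves, against 51.2 ± 1.65 CPM in male nerves, and a log2 fold change of -0.014 (SE 0.058, edgeR adjusted p = 0.938). The 95% intervals of all 10 genes lay between -0.19 and 0.35 on the log2 scale. In 0 of the 10 did the CPM of the sexes fail to overlap, against 21.2% of all genes tested.

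**Figure D4:**
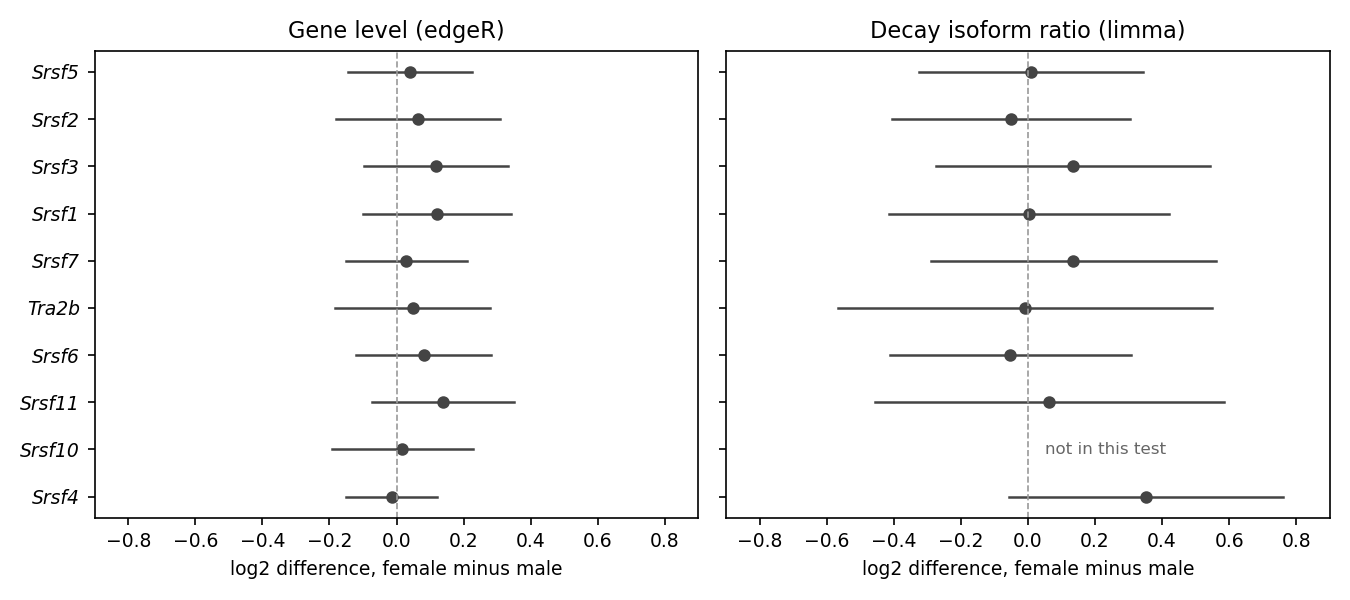
Log2 difference between female and male nerves with its 95% interval, for the gene level by edgeR (left) and for the log2 ratio of NMD plus retained-intron TPM to coding TPM by limma (right), genes ordered by level. Every interval contains 0, and the widest offset is 0.35 for the Srsf4 ratio.

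The balance of isoforms did not pass the test in any gene either. It was tested by limma on the log2 ratio of NMD plus retained-intron TPM to coding TPM, adjusted over the 6303 genes. Of the 9 SR genes in this test 0 were called, against 0.0159% of all genes, which is 1 gene, and 0 had an unadjusted p under 0.05, against 5.54% of all genes. The differences, female minus male, ran from -0.052 in Srsf6 to 0.35 in Srsf4 on the log2 scale, with a median of 0.0099 against 0.10 over all genes. Their 95% intervals reached from -0.57 to 0.76.

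By TPM, 1 of the 9 ratios, that of Srsf4, did not overlap between the sexes, against 11.8% of all genes in the test. Its log2 ratio was -1.07, -0.95 and -0.94 in females and -1.58, -1.28 and -1.17 in males, so every female library lay above every male one. By estimated reads the sexes overlapped, with coding transcripts at 76.1%, 73.5% and 74.1% of the gene in females and 82.1%, 80.2% and 73.8% in males. By TPM the difference was 0.35 with an SE of 0.17 and a limma adjusted p of 0.847, and its interval ran from -0.056 to 0.76. With NMD transcripts alone in the ratio it was 0.36 (SE 0.17, limma adjusted p = 0.783), and for Srsf1 that difference was -0.47 (SE 0.24, limma adjusted p = 0.79). Without male library 1, the lowest, the Srsf4 difference of the full ratio was 0.23, and without that library and female library 2 it was 0.21. Summed levels of 4 fibroblast markers separated the sexes, at 0.364% to 0.445% of all reads in female nerves, against 0.5001% to 0.614% in male nerves. The sum of 3 general Schwann cell markers did so too, at 0.0342% to 0.0446% in females and 0.0471% to 0.0604% in males. Sox10, 1 of these 3 markers, overlapped between the sexes by CPM. Of all single genes tested, 21.2% did not overlap by CPM, and no such share was counted for sums of genes. Summed markers of skeletal muscle, adipocytes, macrophages, neutrophils, endothelial cells and proliferating cells overlapped between the sexes. No marker on these lists was at 0 in every library, and the part of any of these cell types in the Srsf4 ratio was not tested.

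At the level of single transcripts, 69 of the 89 were tested and edgeR called 0, against 0.00877% of all 57036 transcripts tested, which is 5 transcripts. DESeq2 also called 0 of the 69. The lowest adjusted p was 0.624, for Srsf11-208, at 36.97 ± 2.77 TPM in females and 28.6 ± 8.17 TPM in males (SD, n = 3 each) and a log2 fold change of 0.43 (SE 0.15). Its unadjusted edgeR p was 0.0241, and its sexes overlapped in TPM. It was the 1 SR transcript of 69 with an unadjusted p under 0.05, against 7.20% of all transcripts tested. By CPM, 8 of the 69 were higher in all 3 female libraries than in any male library and 1 was lower, against 7.34% and 7.73% of all transcripts.

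The main coding transcripts of Srsf7 stood in opposite order between the sexes, and neither was called. Srsf7-208 had 66.2, 61.2 and 62.1 TPM in females and 53.4, 56.0 and 54.5 TPM in males, with a log2 fold change of 0.17 (SE 0.092, edgeR adjusted p = 0.766). Srsf7-201, singled out after its values were seen, had 32.1, 39.5 and 40.7 TPM in females and 47.5, 42.8 and 43.7 TPM in males, with a log2 fold change of -0.25 and an edgeR adjusted p of 0.752. Every female library was higher for Srsf7-208 and lower for Srsf7-201. How many of all transcripts fail to overlap by TPM was not counted. By CPM it was 15.1% of the 57036 tested, in either direction. The poison exon form Srsf7-203 overlapped, at 4.09 ± 0.179 TPM in females and 3.47 ± 0.849 TPM in males (SD, n = 3 each).

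Isoform balance varied between libraries of the same sex. Relative to each gene's own mean ratio, the SR genes had a median deviation of -0.18 in male library 1 and 0.18 in male library 3 on the log2 scale. Male library 1 was the lowest library for 5 of the 9 genes, male library 2 for 3 and female library 3 for 1. Over all 6303 genes the median deviation was -0.19 in male library 1 and 0.078 in male library 3. Of these genes, 40.5% had their lowest value in male library 1, 14.3% in male library 2 and 7.44% in female library 3. Retained-intron transcripts took 4.92% to 5.08% of all TPM in the female libraries, and 4.25% in male library 1 to 5.36% in male library 3, while NMD transcripts took 1.57% to 1.601% in females and 1.51% to 1.61% in males.

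**Figure D5:**
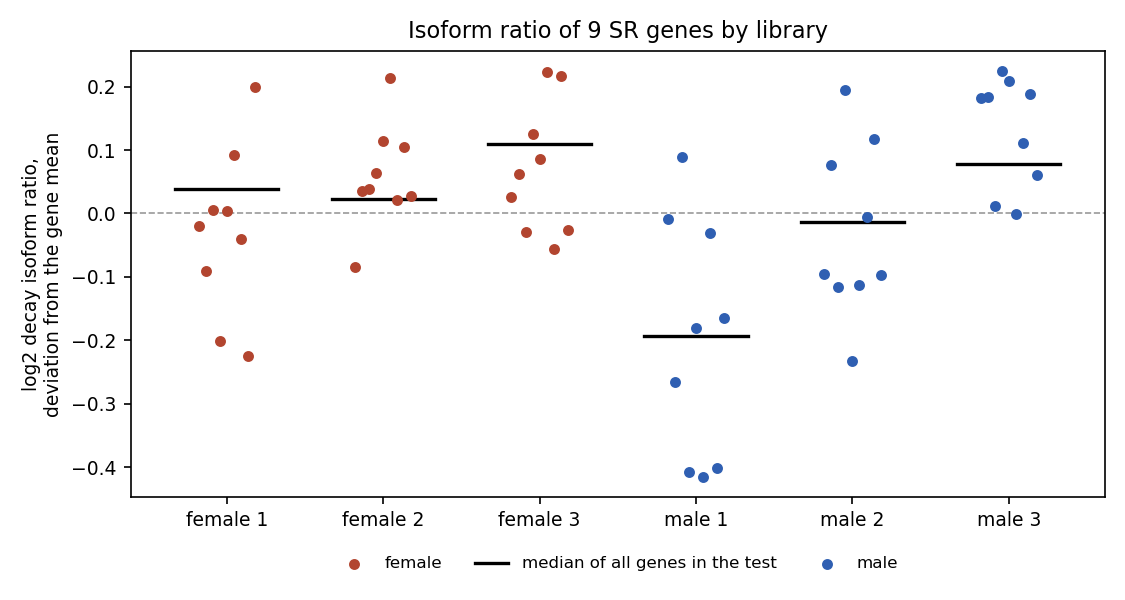
Deviation of the log2 ratio of NMD plus retained-intron to coding TPM from each gene's mean over 6 libraries, with 1 point for each of 9 SR genes, female libraries left of male libraries; black bars are the medians over all 6303 genes in the test. The points of male library 1 lie mostly below 0, as does its bar at -0.19, and those of male library 3 mostly above.

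Male library 1 and female library 2 also held RNA of skeletal muscle, with 10 muscle markers at 0.158% of all reads in female library 2 and 0.0827% in male library 1, and at most 0.00259% in the other 4. Without these 2 libraries 0 SR genes were called in the gene, transcript or ratio test, and the lowest adjusted p among the gene tests was 0.353, for Srsf3. The Srsf1 ratio difference was then -0.14 and that of Srsf11 -0.16, against 0.0040 and 0.064 with all 6 libraries, so the signs of these uncalled differences turned. The part of muscle RNA in them was not tested.

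Genes that act with the SR proteins were counted in 7 lists of 76 genes in all, each of which was tested. None passed the edgeR threshold in either direction, against 0.11% of all genes tested, and 4 of the 76 had an unadjusted p under 0.05, against 14.6% of all genes. Of 10 other SR and SR-related proteins 0 were called, with a median log2 fold change of 0.023, and the smallest p belonged to Srsf12, at 0.156 ± 0.0334 CPM in female nerves, against 0.207 ± 0.0650 CPM in male nerves, and to Rnps1, which joins the exon junction complex. Of 9 kinases that phosphorylate SR proteins 0 were called, with a median of 0.044. Prpf4b, a kinase of the spliceosome, had 123 ± 1.69 CPM in female nerves, against 109 ± 5.53 CPM in male nerves (SD, n = 3 each). The log2 fold change of Prpf4b was 0.17 (SE 0.067, edgeR adjusted p = 0.303). Clk2, which releases SR proteins from nuclear speckles, had 39.1 ± 0.612 CPM in female nerves, against 36.7 ± 0.846 CPM in male nerves.

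Of 26 hnRNP and PTB proteins, many of which oppose SR proteins at exons, 0 were called, with a median of 0.049. Ptbp3, a relative of the splicing repressor PTB, had 271, 253 and 247 CPM in females against 178, 224 and 209 CPM in males. Its log2 fold change was 0.33 (SE 0.099, edgeR adjusted p = 0.207). Hnrnph3 had 32.2 ± 1.76 CPM in female nerves, against 37.2 ± 2.58 CPM in male nerves, with a log2 fold change of -0.21 (SE 0.077, edgeR adjusted p = 0.287). Neither gene overlapped between the sexes and neither was called. Both were named for having the smallest p of the 26, and 21.2% of all genes tested did not overlap by CPM.

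Of 12 factors of the decay pathway 0 were called, with a median of 0.092. Smg6, the endonuclease that cuts NMD targets, had 53.5, 66.5 and 57.3 CPM in females and 50.3, 51.0 and 50.9 CPM in males, a log2 fold change of 0.22 (SE 0.086, edgeR adjusted p = 0.307). Upf3b, which links the exon junction complex to the decay machinery, had a log2 fold change of 0.19 and an edgeR adjusted p of 0.389. Of 5 exon junction complex genes 0 were called, with a median of -0.0057, and Rbm8a and Eif4a3 had log2 fold changes of -0.13 and 0.047. Of 7 splice site recognition genes 0 were called, with a median of 0.0056, among them Snrpa of the U1 particle at -0.15 and Sf3b1 of the U2 particle at 0.13. Of 7 known decay substrates, genes whose normal RNA is degraded by NMD, 0 were called with a median of -0.055, and Gadd45b and Tbl2 stood at 0.12 and -0.12.

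Across the 6 libraries the SR genes had a median SD of log2 CPM of 0.11, against 0.15 over all 19129 genes. The 19129 genes were not matched to the SR genes in level, so these values do not show that SR genes vary less than genes of like level. The mean centred log2 CPM of the SR genes was highest in female library 1 at 0.14 and lowest in female library 2 at -0.087. Srsf1 followed this mean most closely, with a Pearson r of 0.97 over 6 libraries, and Srsf4 did not follow it, with an r of -0.24. The mean includes each gene itself, and genes with a larger spread weigh more in it. The SD of log2 CPM was 0.125 in Srsf1 and 0.034 in Srsf4. Outside the family the closest profiles were those of Pa2g4, Rogdi, Snhg1, Yaf2 and Tomm20, with Pearson r between 0.988 and 0.997 over the same 6 libraries. These correlations are descriptions over libraries that share their scaling, and the 5 genes are the highest of all those tested.

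The libraries held 55272138 to 77610593 estimated reads, and each SR gene had at least 2773 reads in every library. Xist stood at 721 to 917 CPM in female nerves, against 0.230 to 3.40 CPM in male nerves, and Ddx3y at 0 to 0.160 CPM in female nerves, against 74.3 to 88.3 CPM in male nerves, as the labels have it. Sox10, a transcription factor that defines Schwann cells, was at 170.4 to 209 CPM in female nerves, against 206 to 269.5 CPM in male nerves, so this marker of the nerve was present in every library. Gm11508 overlaps Srsf1 on the opposite strand, Mettl23 and Mfsd11 overlap Srsf2 and Gm12992 overlaps Srsf4 in the same way, and A930004J17Rik and Gm43362 lie on the same strand within Srsf4 and Srsf11. The labels do not say whether the read assignment used strand, so reads of the opposite-strand pairs may not be fully told apart. Strand cannot separate reads of the same-strand pairs under either setting. The pseudogene copies Srsf3-ps and Tra2b-ps had at most 2.73 estimated reads in any library.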

How the data were processed

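Per the labels' protocols, stranded poly-A selected libraries were sequenced as paired reads of 100 nt, each from 500 ng of RNA whose integrity number was 7.0 or more. Trimmomatic 0.39, Salmon 1.5.2 and MultiQC 1.9 are named in the submitters' processing notes. Per the file headers, the deposited tables give estimated counts (NumReads) and TPM values for 140789 transcripts, neither changed further by the authors as far as the headers say. Neither the labels nor the file headers name a genome build, an annotation release or a strand setting. All 89 SR transcripts matched GENCODE M21 by ID, length and biotype, as did 136567 of all transcripts by ID and length, and that annotation gave exons, stop codons, coordinates and sequence.

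Estimated counts were summed per gene and rounded. Genes and transcripts were tested with edgeR 4.0.16 (filterByExpr, TMM, robust quasi-likelihood, no covariate) in R 4.3.3. Isoform ratios used limma 3.58.1 with a trend, a pseudocount of 0.1 TPM and a minimum mean of 0.5 TPM in each class. CPM is TMM-scaled. Adjusted p-values are Benjamini-Hochberg over all features tested. Salmon divides reads between overlapping isoforms by an estimate whose error is not in the deposited values, so p-values of transcripts and ratios do not include it. In counting, 3 reads correspond to at most 0.0543 CPM, and this limit covers counting error only. Replicates are separate pools of 2 animals per the labels. Every pair of libraries differed beyond sampling noise (chi-square per degree of freedom at least 26.3). The fits were tested on simulated data.

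The SR genes, the companion lists and the markers were chosen with earlier results of these data known. The result of 1 marker list, for myelinating Schwann cells, is not reported here. Named were all 10 genes, the leading coding, NMD and retained-intron transcript of each, the companion genes of smallest p, and the 5 most similar profiles. The rule that a coding transcript defines coding exons at a mean of 1 TPM or more was set after the values were seen, as was the naming of other transcripts. Alternatives were other scalings and filters, DESeq2 1.42.0, a length offset, limma on log2(TPM + 1), a replicate block, each library left out, other pseudocounts and other class definitions.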

Additional observations from a re-analysis of the deposited data

How the results depend on the processing

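No SR gene, transcript or ratio passed the threshold under any alternative run, so no call on these genes depends on the processing. The counts over all features did. The 21 genes called became 191 with no filter on low counts, 871 with DESeq2, 11 with limma on log2(TPM + 1) and 4 to 205 with 1 library left out, the lowest without male library 2 and the highest without female library 3. The 5 transcripts called became 8 with RLE scaling, 23 with no filter, 798 with DESeq2, 0 without female library 2 and male library 1, and 0 to 6 with 1 library left out, the lowest without male library 2. The 1 ratio called became 3 without those 2 libraries, 0 with NMD transcripts alone, and 1 to 4 with 1 library left out, the highest without male library 1. The median NMD plus retained-intron share over the 10 genes was 29.6% by TPM and 24.6% by estimated counts.

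The replicate numbers did not pair the libraries: same-numbered deviations correlated at -0.090, -0.17 and 0.0093. With a replicate block 3 genes, 0 transcripts and 1 ratio were called.

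Among the SR genes, signs turned only in differences that were never called. At gene level Srsf4 was 0.0043 without female library 2 and male library 1, 0.026 with total reads, 0.015 with a length offset and 0.0091 with limma on log2(TPM + 1). Of the ratios, Srsf1 was -0.14 and Srsf11 -0.16 without those 2 libraries, Srsf1 was -0.074 by estimated counts, Srsf1 was -0.47 and Srsf11 -0.33 with NMD alone, Tra2b was 0.037 and Srsf2 0.015 with retained introns alone, and Srsf5 was -0.024 and Tra2b 0.0092 with every class other than coding. With 1 library left out, gene level differences ranged from -7.66e-05 to 0.14 in Srsf6, -0.027 to 0.11 in Tra2b, -0.0043 to 0.093 in Srsf7, -0.036 to 0.087 in Srsf10, -0.030 to 0.017 in Srsf4 and -0.060 to 0.13 in Srsf2. Ratio differences ranged from -0.11 to 0.026 in Srsf6, -0.13 to 0.096 in Srsf1, -0.046 to 0.057 in Srsf5, -0.21 to 0.10 in Tra2b and -0.12 to 0.19 in Srsf11. The cause was not tested. Reads assigned to low isoforms, 144 to 266 a library for Srsf4-204 and 36 to 130 for Srsf2-204, limit the precision of the shares.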
